A study of Mus musculus with 7 samples.

Results

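The genes described here are the vanins and the enzymes that make coenzyme A, here followed in the whole adrenals of 2-month-old female mice. The list has 10 symbols, Vnn1, Vnn3, Btd, Pank1, Pank2, Pank3, Pank4, Ppcs, Ppcdc and Coasy. Of these 10, 8 have a probe set of their own among 22180 measured genes. Btd and Pank2 do not, since the single probe set of each also carries the symbol of another gene, Hacl1 and Rnf24 respectively. The list was chosen by the measured difference between groups in these same arrays, among them the large fall of Vnn3. The changes of the 8 genes are therefore given as a description, with no p-value. Where a limma call of these genes is named, it too is a description and no test.

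The 4 knockout mice (KO) carried sf1:Cre and Ezh2 Fl/Fl, that is, a Cre recombinase driven by the gene of steroidogenic factor 1 (Nr5a1) and floxed Ezh2, the methyltransferase of Polycomb repressive complex 2. The 3 wild-type (WT) mice were littermates, and the sources used here do not give whether they carried a floxed allele or Cre. All were of a mixed, uncontrolled background, largely C57BL/6 and SV129. Cre under this gene is known to act in steroidogenic cells of the adrenal cortex, whereas the array was hybridised with RNA of the whole gland, so medullary, capsular, vascular and any adhering fat cells contribute to every value. Values are log2 expression after RMA, 1 array per mouse.

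Ezh2, the targeted gene, was at the identical value of 7.08 on each WT array. Such exact ties were common on these arrays, so this one is no measure of the spread between mice. On the KO arrays of replicates 1 to 4 it was at 6.86, 7.04, 7.10 and 7.15. The change of Ezh2 was -0.04 (SE 0.07, limma adjusted p = 0.816). The sources used here do not give which of its exons the probe set covers, so the value is no check of the genotypes. Arrays of the same group correlated at Pearson's r of 0.993 to 0.996 across genes and arrays of different groups at 0.984 to 0.990, genes not being independent replicates.

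Coenzyme A is built in every cell from the vitamin pantothenate. Pantothenate kinases add a phosphate, phosphopantothenoylcysteine synthetase (Ppcs) and its decarboxylase (Ppcdc) turn the product into phosphopantetheine, and Coasy completes the molecule. Vanins work at the other end: they are pantetheinases, which split pantetheine, a breakdown product of coenzyme A, into pantothenate and cysteamine. Biotinidase (Btd) is a relative of the vanins that releases the vitamin biotin. In mouse liver, Vnn1 and Pank1 are known targets of the fatty acid receptor PPAR-alpha.

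Promoter sequence from RefSeq (GRCm38.p6) was matched by symbol for 8 of the 10 listed genes, and Vnn1 and Coasy had no entry. The 250 bases before the start site are printed for Vnn3, the gene with the widest difference, and for Pank3 and Pank4 of the pantothenate kinase family. They are examples from the CG-poor and the CG-richer side of the list. Capitals mark CG dinucleotides.
Vnn3 (chr10:23851212-23851461, plus strand): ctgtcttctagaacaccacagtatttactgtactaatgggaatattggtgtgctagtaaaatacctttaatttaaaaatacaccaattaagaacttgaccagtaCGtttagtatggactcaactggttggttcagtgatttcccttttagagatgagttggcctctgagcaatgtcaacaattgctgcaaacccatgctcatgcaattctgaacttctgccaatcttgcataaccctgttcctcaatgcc
Pank3 (chr11:35769245-35769494, plus strand): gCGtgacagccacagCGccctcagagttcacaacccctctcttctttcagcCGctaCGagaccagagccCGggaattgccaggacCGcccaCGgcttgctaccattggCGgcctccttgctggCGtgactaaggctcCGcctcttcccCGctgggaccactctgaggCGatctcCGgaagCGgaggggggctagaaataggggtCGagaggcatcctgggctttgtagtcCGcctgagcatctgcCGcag
Pank4 (chr4:154963873-154964122, plus strand): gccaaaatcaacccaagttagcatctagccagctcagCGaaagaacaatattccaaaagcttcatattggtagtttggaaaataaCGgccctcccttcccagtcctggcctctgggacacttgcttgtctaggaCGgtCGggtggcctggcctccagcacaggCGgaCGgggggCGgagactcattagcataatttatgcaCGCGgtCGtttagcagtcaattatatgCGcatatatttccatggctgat
Over the 12 stretches of the 8 genes the number of CG dinucleotides ran from 1 to 42. The Vnn3 stretch holds 1 CG dinucleotide and 39.2% G and C, that of Pank3 holds 17 and 63.6%, and that of Pank4 holds 11 and 50.4%. The median over 32851 promoter stretches was 6 CG dinucleotides and 52.4% G and C. At most 1 CG dinucleotide was found in 18.8% of these stretches, and at least 17 in 23.5%. The nuclear receptor half-site AGGTCA, searched on both strands, was in none of the 3 printed stretches. It was in 4607 of all 32851 stretches. Neither the longer CAAGGTCA, which contains it and is found in 1.33% of all stretches, nor a direct repeat of AGGTCA with 1 base between (0.0335%) nor TATAAA (12.4%) was in them. Among all stretches of the listed genes, AGGTCA was in that of Ppcs and TATAAA in 1 of the 2 stretches of Pank1. These are matches of letters in a short window only.

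All 8 measured genes had a log2 change below 0 in KO glands, as did 49.7% of all genes. By limma, with Benjamini-Hochberg adjustment over 22180 genes, 4 of the 8 were called lower (Vnn1, Vnn3, Pank3 and Coasy) and 0 higher. Over all genes 8.69% were called, 3.55% lower and 5.14% higher. In 5 of the 8, the same 4 and Pank4, every KO array lay below every WT array, which held for 9.86% of all genes. Because the list was chosen on this contrast, nothing is read from these shares. The median change of the 8 genes was -0.39, and of the 6 without the vanins -0.28, against 0.0004 over all genes. Whether less RNA came from each cell or fewer cells of a type were present cannot be told apart in whole glands.

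Vnn3 fell most. It was at 8.43, 8.40 and 8.54 on the WT arrays of replicates 1 to 3, and at 4.82, 4.66, 5.13 and 5.26 on the KO arrays of replicates 1 to 4. The highest KO array thus lay 3.13 log2 units under the lowest WT array, while the WT arrays spanned 0.14 and the KO arrays 0.60. The group means were 8.46 ± 0.08 (SD, n = 3) and 4.97 ± 0.28 (SD, n = 4). Their difference on the log2 scale was -3.49 with an SE of 0.14 (95% interval -3.83 to -3.14), or 11.2-fold lower in KO. This was the 6th lowest change of the 22180 genes. All 4 KO values lay under the array medians of 5.32 to 5.38. No detection calls were used here, so the KO level could not be set against background.

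Vnn1, the gene of the membrane-anchored vanin, also fell, by less. Its values were 9.50, 9.81 and 10.07 on the WT arrays and 8.87, 8.49, 8.95 and 8.80 on the KO arrays. The groups did not overlap, with 0.55 log2 units between the lowest WT and the highest KO array. That gap is about as wide as the WT arrays' own span of 0.57. From 9.79 ± 0.28 (SD, n = 3) to 8.78 ± 0.20 (SD, n = 4) the change was -1.02 (SE 0.16, 95% interval -1.39 to -0.65), or 2.02-fold lower. In KO, replicate 2 was the lowest array for both vanins, whereas the highest was replicate 4 for Vnn3 and replicate 3 for Vnn1.

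**Figure D1:**
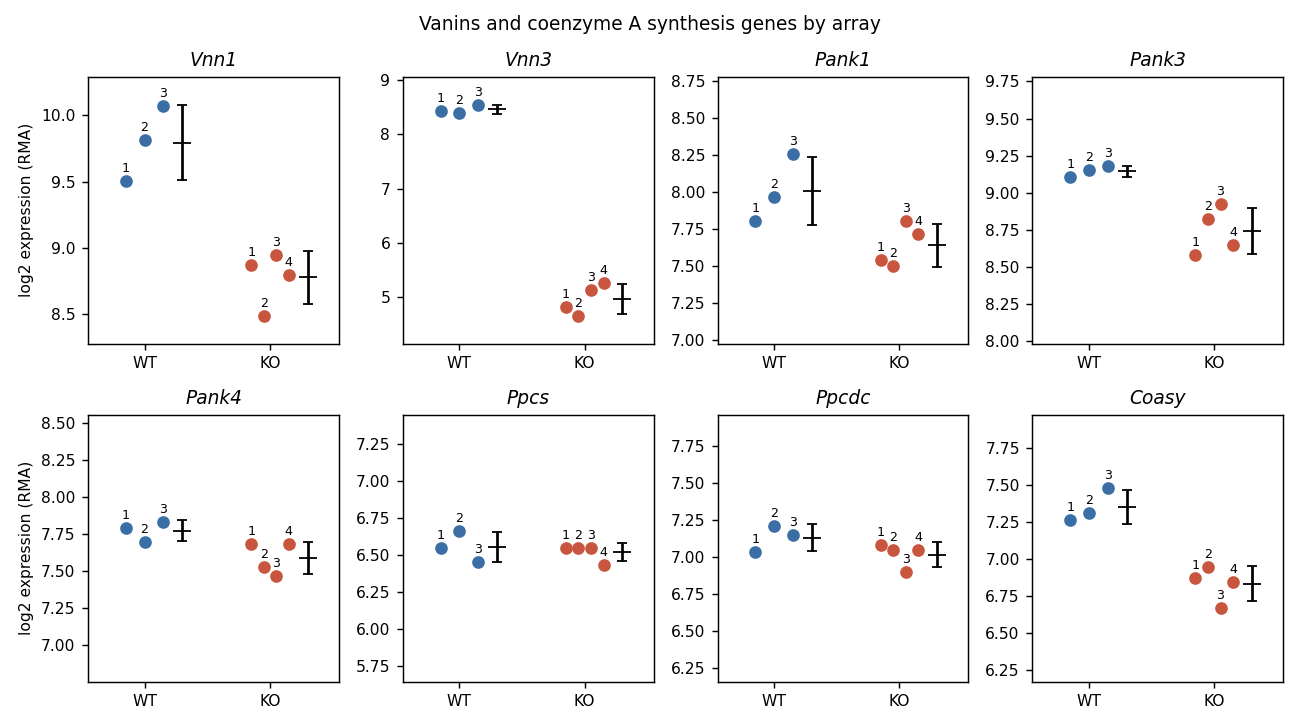
RMA log2 expression of the 8 measured genes on each array (points, numbered by replicate), with the mean and SD of 3 WT and 4 KO arrays beside them; the panels have axes of different spans. Vnn3 drops from about 8.46 to 4.97 and Vnn1 from 9.79 to 8.78, the changes of the other genes are under 0.6, and the Ppcs arrays overlap.

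The pantothenate kinases carry out the committed, regulated step of the pathway. Pank3 was at 9.10, 9.15 and 9.18 in WT and at 8.58, 8.82, 8.92 and 8.64 in KO. The WT arrays were almost level, the KO arrays spread over 0.34, and the groups did not overlap. The WT mean of 9.14 ± 0.04 (SD, n = 3) stood against 8.74 ± 0.16 (SD, n = 4) in KO, and Pank3 fell with a change of -0.40 (SE 0.09, 95% interval -0.61 to -0.20). As a description only, its call was kept without KO replicate 3 and lost without any other single array, where the change ran between -0.35 and -0.43.

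Pank1, which encodes the isoforms abundant in liver, was at 7.80, 7.96 and 8.26 in WT and at 7.54, 7.50, 7.80 and 7.72 in KO. WT replicate 1 and KO replicate 3 had the same value, so the groups touched. The change was -0.37 (SE 0.12, 95% interval -0.65 to -0.08) and was not called. It ranged from -0.24 without WT replicate 3 to -0.47 without WT replicate 1. Pank4, a family member without kinase activity in mammals, was at 7.79, 7.69 and 7.83 in WT and at 7.68, 7.53, 7.46 and 7.68 in KO. These groups were apart by 0.02 only. The change of -0.18 (SE 0.07) was not called.

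Ppcs and Ppcdc, the enzymes of the middle steps, differed little. Ppcs was at 6.55, 6.66 and 6.45 in WT and at 6.55, 6.55, 6.55 and 6.43 in KO. WT replicate 1 and KO replicates 1 to 3 held the identical value, and the groups overlapped. The change was -0.03 (SE 0.06, 95% interval -0.18 to 0.11). Ppcdc was at 7.03, 7.21 and 7.14 in WT and at 7.08, 7.04, 6.90 and 7.04 in KO, again with overlap. Its change was -0.11 (SE 0.06, 95% interval -0.26 to 0.04). Neither gene was called, and their intervals leave room for falls of up to 0.18 and 0.26 log2 units.

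Coasy, the bifunctional enzyme of the last steps, fell. It was at 7.26, 7.31 and 7.48 in WT and at 6.87, 6.95, 6.66 and 6.85 in KO. Every KO array lay at least 0.32 log2 units under every WT array, more than the span within either group (0.21 in WT and 0.28 in KO). From 7.35 ± 0.11 (SD, n = 3) to 6.83 ± 0.12 (SD, n = 4) the change was -0.52 (SE 0.08, 95% interval -0.71 to -0.33), or 1.43-fold lower.

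**Figure D2:**
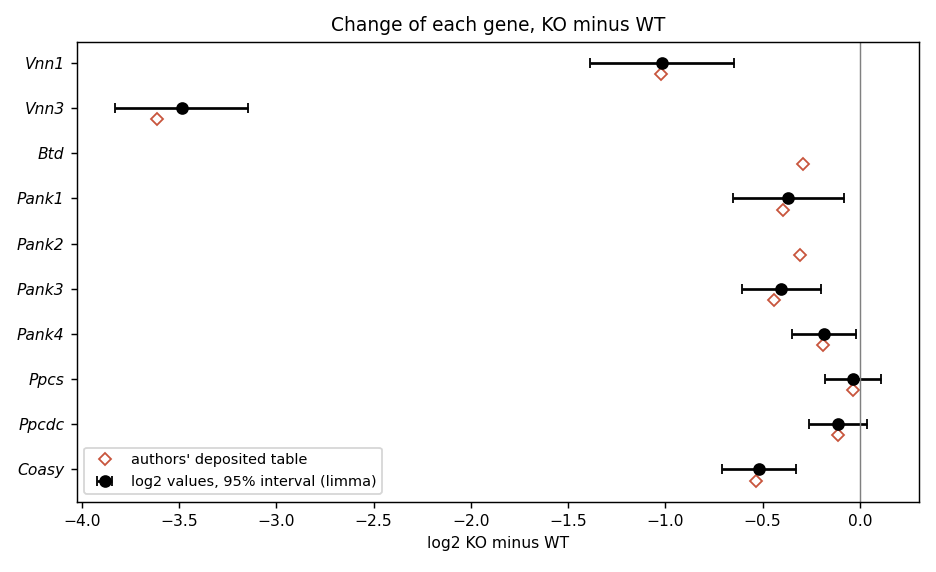
Log2 change, KO minus WT, of each listed gene, with limma's 95% interval for the 8 genes with a probe set of their own (filled points) and the value of the authors' deposited table for all 10 (open diamonds). The changes run from -3.49 for Vnn3 to -0.03 for Ppcs, and only the intervals of Ppcs and Ppcdc include 0.

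Btd and Pank2 can be given only from the authors' deposited table, which lists a log2 change of -0.29 for Btd and of -0.31 for Pank2. The sources used here do not give the probe sets behind these values. For the other 8 genes the authors' deposited table and the values above differed by at most 0.13 log2 units, the widest for Vnn3 at -3.62.

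Vnn3 and Vnn1 lie side by side, with 0 measured genes between them in the RefSeq annotation. Of the 12 measured genes around them, 6 on each side, 1 was called higher and 0 lower. The exception was Tcf21, a mesenchymal transcription factor gene, at 6.56 ± 0.22 (SD, n = 3) in WT and 8.04 ± 0.10 (SD, n = 4) in KO. It rose by 1.48 (SE 0.11, limma adjusted p = 0.00106), and is itself 1 of the 8 capsule and stroma markers given below. The nearest measured gene on the side of Vnn3, Slc18b1, a vesicular polyamine transporter, had a change of 0.07 (adjusted p = 0.759). On the side of Vnn1 come 6 trace amine receptor genes, Taar1 to Taar6, with changes between -0.08 and 0.05. Their group means, from 3.24 to 4.68, lay under the array medians of 5.32 to 5.38, where a fall could hardly show. Eya4, a transcriptional coactivator, had a change of -0.41 (adjusted p = 0.132), which was called without WT replicate 3 (-0.60, adjusted p = 0.00610). The remaining neighbours, Rps12, Snora33 and Gm10824, had changes of 0.18, 0.03 and 0.15, none called.

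**Figure D3:**
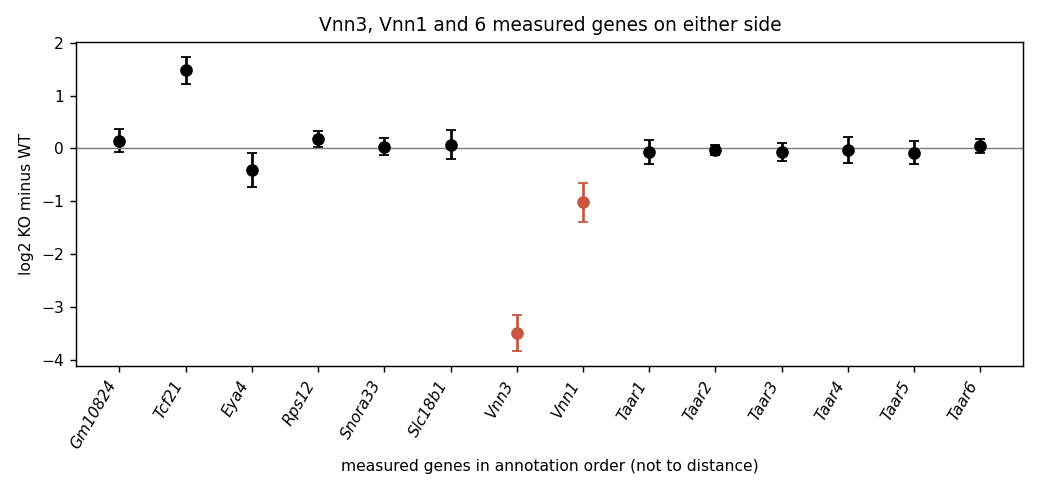
Log2 change, KO minus WT, with limma's 95% interval, of Vnn3, Vnn1 (red) and the 12 measured genes around them, in annotation order and not to distance. Vnn3 at -3.49 and Vnn1 at -1.02 are low, Tcf21 is high at 1.48, and the changes of the other 11 genes lie between -0.41 and 0.18.

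The genes with the profile most like each vanin were found by the root mean square difference over the 7 arrays, after each gene was set relative to its WT mean. For Vnn3 they were Cyp2f2 (0.45 log2 units), Fetub (0.48), Serpinb1a (0.48), Cd1d1 (0.48) and Obp2a (0.54). For Vnn1 they were Il13ra1 (0.14), Napepld (0.15), Hk2 (0.15), Il34 (0.15) and Smpdl3b (0.15). The measure picks genes of a like fall by construction, so their changes, -2.93 to -4.00 and -0.91 to -1.05, carry no further weight. Cyp2f2 is also one of the X-zone markers used here, and the X-zone is an innermost cortical layer that mice lose with age or pregnancy.

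Marker lists moved on the same arrays. The mean of 4 X-zone markers (Akr1c18, Pik3c2g, Thrb and Cyp2f2, all called lower) was 9.17, 9.24 and 9.51 in WT and 6.91, 6.46, 7.09 and 7.07 in KO. WT replicate 3 was its highest array and KO replicate 2 its lowest, an order that both vanins, the macrophage mean and the mean of the nitrilase relatives also had. All 8 measured chromaffin markers (Th, Dbh, Pnmt, Ddc, Chga, Chgb, Slc18a1 and Slc18a2) were called higher, by 0.49 for Chgb to 1.27 for Pnmt, and their mean rose from between 9.58 and 9.68 in WT to between 10.47 and 10.72 in KO. Of 8 capsule and stroma markers 5 were called higher (Tcf21, Lum, Pdgfra, Gli1 and Col1a2) and 0 lower, with a list mean of 7.81 to 7.95 in WT and 8.33 to 9.10 in KO. The mean of 8 cortical steroidogenic genes was 11.81 to 11.88 in WT and 11.88 to 11.97 in KO. By limma 0 of 8 were called, although 6 had an unadjusted p under 0.05 (the share over all genes is not given here). The near-level mean joins opposite shifts, with 4 genes above 0 and 4 below, from -0.20 for Hsd3b1 to 0.44 for Nr5a1. The mean of 5 macrophage markers was 7.10 to 7.17 in WT and 6.62 to 7.12 in KO. Of these 5 genes 4 had a change below 0, from -0.57 for Mrc1 (SE 0.14, adjusted p = 0.0543) to 0.06 for Cd163, and 0 were called by limma, although 3 had an unadjusted p under 0.05. The mean of 5 endothelial markers was 9.21 to 9.28 in WT and 8.93 to 9.31 in KO, and 1 of the 5, the angiopoietin receptor gene Tek, fell by 0.47 (SE 0.11, adjusted p = 0.0390). The part of X-zone, medullary, stromal, macrophage or endothelial RNA in the changes of the vanins and synthesis genes was not tested.

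Lists for kidney tubule, liver and neutrophils, where vanin genes are also known, had means below the array medians in both groups. The mean of 7 kidney tubule markers was 4.67 to 4.79 in WT and 4.71 to 4.79 in KO, that of 5 hepatocyte markers 4.28 to 4.49 and 4.44 to 4.51, and that of 5 neutrophil markers 4.02 to 4.11 and 3.98 to 4.05. By limma 0 of these 17 genes were called, and 1 had an unadjusted p under 0.05. The mean of 6 adipocyte markers varied widely, from 8.40 to 9.37 in WT and from 7.10 to 8.95 in KO, with KO replicate 1 the lowest, and 0 of 6 were called (0 with an unadjusted p under 0.05). With that mean as a covariate, an alternative chosen after the data were seen, the log2 changes were -3.46 for Vnn3, -1.01 for Vnn1, -0.52 for Coasy and -0.31 for Pank3.

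**Figure D4:**
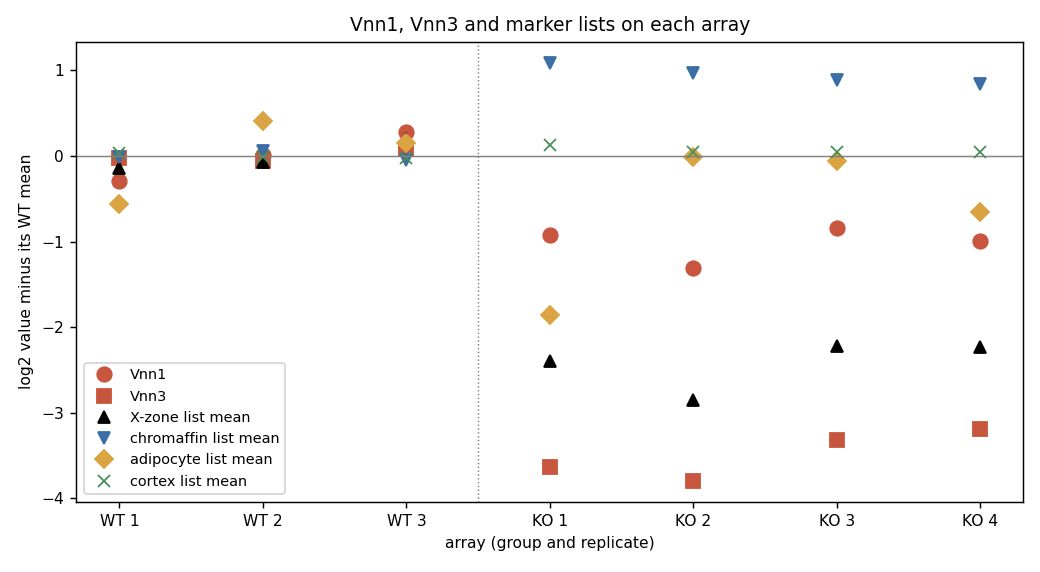
Vnn1, Vnn3 and the means of 4 marker lists on each array, as log2 values minus their own WT mean. On the KO arrays Vnn3 and the X-zone mean lie lowest, Vnn1 is about 1.02 below 0, the chromaffin mean is above 0, the cortex mean stays near 0 and the adipocyte mean is lowest on KO replicate 1.

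Around the pathway, 70 further genes in 7 lists were examined, of which 63 were measured. By limma 10 were called lower and 1 higher in KO, with a median change of -0.18 over the 63. Of these, 48 had a change below 0 and 27 had an unadjusted p under 0.05 by limma. The share of all genes with such a p is not given here, for this or any other list. It is at least the 8.69% of all genes that were called after adjustment. For comparison, 3.55% of all genes were called lower and 5.14% higher. The lists were chosen with earlier results of these data known, so nothing is read from these shares. In all 11 called genes the values of the groups were fully separate, as they were in 4475 of all 22180 genes. Genes called on these same arrays tend to be separate, so this adds no support. Acadm, Pcca and Slc6a6 kept their call without any single array. The other 8 lost it without at least 1 array, and the number called lower was 5 without WT replicate 2, 4 without WT replicate 3 and 6 without KO replicate 1 or KO replicate 3. It was also 6 with the adipocyte mean as a covariate. There Slc25a42, Pccb, Mccc2, Acsl5 and Acsl4 lost their calls, so the 6 include a gene not called without the covariate.

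The list with the most called genes was that of biotin use, biotin being the vitamin that Btd recycles. Of 8 genes, 4 were called lower and 0 higher, while 6 had a change below 0 and 5 had an unadjusted p under 0.05 by limma. The 4 called genes are the subunits of both mitochondrial biotin carboxylases of branched-chain amino acid and propionate breakdown, which work on coenzyme A thioesters. Pcca, the biotin-bearing subunit of propionyl-CoA carboxylase, was at 9.50, 9.68 and 9.59 in WT and at 9.04, 9.004, 9.08 and 9.18 in KO, with no overlap. It fell by 0.51 (SE 0.06, adjusted p = 0.00427), and its partner Pccb fell by 0.42 (SE 0.07, adjusted p = 0.0150), although the call of Pccb was lost without WT replicate 2 or WT replicate 3 (highest adjusted p = 0.0654). Mccc1, the biotin-bearing subunit of methylcrotonyl-CoA carboxylase, fell by 0.39 (adjusted p = 0.0108, or 0.0505 without WT replicate 3). Mccc2 fell by 0.48 (adjusted p = 0.0251), a call kept only without WT replicate 1 or KO replicate 4 among the single arrays left out (highest adjusted p = 0.0937). Acacb, the acetyl-CoA carboxylase of mitochondria, had a change of -0.66 with a wide error (SE 0.26, adjusted p = 0.187), and Pcx, pyruvate carboxylase, one of 0.16 (adjusted p = 0.462). Hlcs, which attaches biotin to these enzymes, had a change of 0.13 (adjusted p = 0.243), and the median of the 8 was -0.45.

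Of 8 genes of coenzyme A supply and breakdown 1 was called lower and 0 higher, with a median of -0.21. Of the 8, 7 had a change below 0 and 5 had an unadjusted p under 0.05 by limma. The called gene was Slc25a42, the carrier that brings coenzyme A into mitochondria, at 7.55, 7.98 and 7.47 in WT and 6.89, 7.12, 6.81 and 7.06 in KO. The groups did not overlap, and it fell by 0.70 (SE 0.14, adjusted p = 0.0226). The call was lost without WT replicate 1 or KO replicates 1, 3 or 4 (highest adjusted p = 0.0652). Slc5a6, the transporter that takes up both pantothenate and biotin, had a change of -0.06 (adjusted p = 0.520). Changes were -0.39 for the coenzyme A hydrolase gene Nudt7 (adjusted p = 0.116) and 0.08 for Dcakd, which is named for a dephospho-CoA kinase domain (adjusted p = 0.455). Aasdhppt, which transfers the phosphopantetheine arm of coenzyme A to proteins, had a change of -0.22 (adjusted p = 0.0862).

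Cysteamine, the other product of vanins, can be oxidised towards taurine. Of 6 genes of this route 1 was called lower and 0 higher. All 6 had a change below 0, and 2 had an unadjusted p under 0.05 by limma. Slc6a6, the taurine transporter, was at 10.70, 10.65 and 10.78 in WT and at 10.42, 10.27, 10.40 and 10.31 in KO, without overlap. It fell by 0.36 (SE 0.06, adjusted p = 0.0103). Ado, which oxidises cysteamine, had a change of -0.07 (adjusted p = 0.531). Cdo1, the cysteine dioxygenase, had a change of -0.84 (SE 0.61, adjusted p = 0.471) with an SD of 1.14 among the KO arrays, and Fmo1 one of -0.79 (adjusted p = 0.0564). Of 4 nitrilase relatives of the vanins 0 were called, with changes from -0.29 for Nit2 (adjusted p = 0.0716) to 0.05 for Nadsyn1, and 1 had an unadjusted p under 0.05 by limma.

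Enzymes that load or unload coenzyme A were mixed. Of 11 measured acyl-CoA synthetases 1 was called higher and 2 lower. Among the 11, 4 had a change above 0 and 7 below 0, and 6 had an unadjusted p under 0.05 by limma. Acsl6 rose by 0.36 (adjusted p = 0.0183), a call lost without any 1 WT array or without KO replicate 2 (highest adjusted p = 0.0797). Its value was 0.18 as the mean of its probe sets (adjusted p = 0.107). Acsl5 fell by 0.64 (adjusted p = 0.0368) and Acsl4, which prefers arachidonate, by 0.18 (adjusted p = 0.0402). The call of Acsl4 was lost without any 1 array (highest adjusted p = 0.121), and that of Acsl5 without any but WT replicate 1 (highest adjusted p = 0.132). Acsl4 was called in 5 of 16 alternatives. Its call was also lost with arrays centred on their medians (adjusted p = 0.0961) and after further quantile normalization (adjusted p = 0.0534). Of 11 thioesterases, which release free coenzyme A, 0 were called by limma and 0 had an unadjusted p under 0.05. Their changes ran from -0.34 for Acot11 to 0.23 for Acot7.

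Of 15 measured PPAR receptors and PPAR-alpha targets 2 were called lower and 0 higher, with a median of -0.37. Among the 15, 12 had a change below 0 and 8 had an unadjusted p under 0.05 by limma. The 2 called genes are dehydrogenases of mitochondrial fatty acid oxidation. Acadm was at 11.16, 11.33 and 11.37 in WT and at 10.69, 10.81, 10.89 and 10.76 in KO, and fell by 0.50 (SE 0.07, adjusted p = 0.00689). Acadl fell by 0.81 (adjusted p = 0.0167), a call lost without WT replicate 2 or WT replicate 3 (adjusted p = 0.0723 and 0.0808). Ppara itself had a change of -0.37 (SE 0.15, adjusted p = 0.189). Pdk4, a kinase that restrains pyruvate oxidation, had a change of -1.16 (SE 0.39, adjusted p = 0.131), Cpt1a, the gate of fatty acid entry into mitochondria, one of -0.30 (adjusted p = 0.0721), and Angptl4 one of 0.15 (adjusted p = 0.746). On the same arrays the adipocyte mean had its lowest value on KO replicate 1, where Acadl was also lowest (9.54), and with that mean as a covariate the change of Acadl was -0.62 (adjusted p = 0.00788). Pdk4 (6.93) was lowest on KO replicate 1 too, as were Cdo1 (7.34) and Acacb (6.95) of the lists above, whereas Ppara and Cpt1a were not. The part of fat RNA in these changes was not tested.

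**Figure D5:**
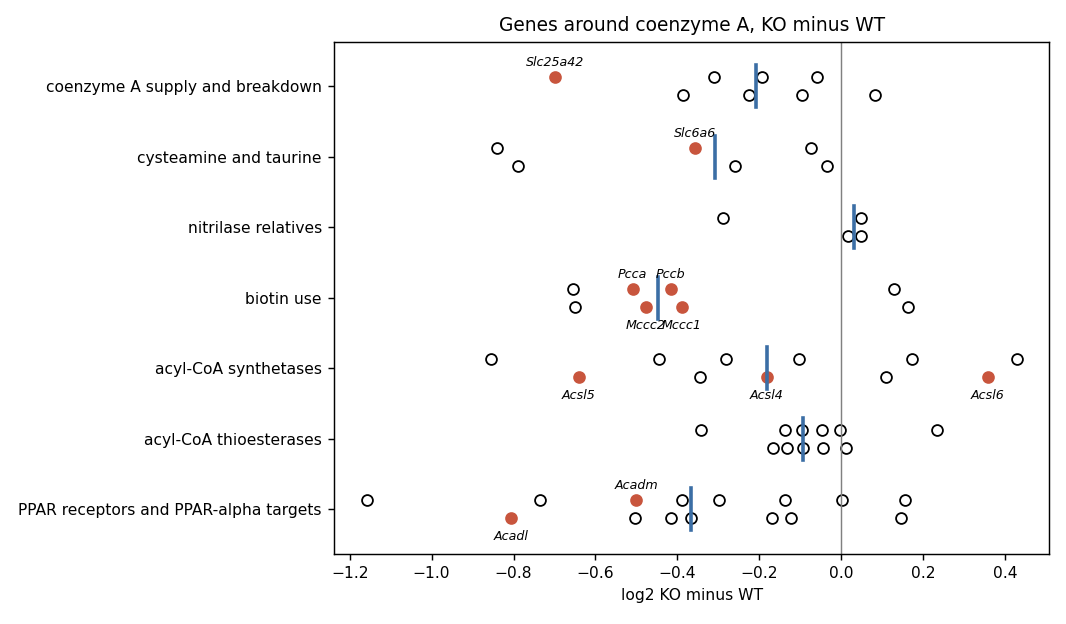
Log2 change, KO minus WT, of the 63 measured genes around coenzyme A by list; filled points are genes with a limma adjusted p under 0.05 and the vertical bars are list medians. The 10 genes called lower lie between -0.81 and -0.18, Acsl6 is called at 0.36, and the thioesterases cluster around -0.09.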

How the data were processed

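Total RNA of whole adrenal glands was measured on 1-colour Affymetrix arrays, 3 WT and 4 KO. The authors made log2 expression values of 41345 probe sets with RMA, per the submitters' processing notes, which give no version. RMA corrects background, normalizes by quantiles and summarises probes. It compresses folds of dim genes. The authors also deposited a table of log2 changes and p-values, and the sources used here do not give its test. It was only compared.

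Probe sets with exactly 1 symbol (23521) were kept, the brightest per gene, leaving 22180 genes without a filter on low values. KO was compared with WT with limma 3.58.1 in R 4.3.3, two-sided, with Benjamini-Hochberg adjustment over all genes, called at an adjusted p under 0.05. The fit leaves 5 residual degrees of freedom, and the number of arrays limits precision (median SE 0.0703). Intervals are 95%. The fit was tested on simulated data. Protein identities were not computed.

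The members and lists were chosen with earlier results of these data known. Named genes are the listed genes, the called members of the pathway and marker lists (the extreme ones in a list with none, of which only some are given for marker lists), the neighbours of the vanins, the 5 profiles most like each vanin, and Ezh2. Members without a call in a list that has one, such as Acacb, Slc5a6 or Ppara, were chosen after their values were seen. Alternatives are given in the closing section. Same-numbered WT and KO arrays deviated from their group means with correlations of 0.07, -0.08 and -0.11, so the replicate number was not taken to pair the mice.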

Additional observations from a re-analysis of the deposited data

Results flagged for a closer look

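Single arrays far from the other 3 KO arrays were sought in 31 genes, and 3 were found. Chance marks about 1 in 20 groups without ties, a rate that does not apply to these 3, which all hold ties. For Ppcs and Taar2 the other 3 KO arrays hold exactly equal values, so that any deviation of the fourth is marked. Ppcs was at 6.43 on KO replicate 4 and at the identical value of 6.55 on the other KO arrays. Taar2 was at 3.58 on KO replicate 3, and the other KO arrays shared 3.57. Taar6 was at 3.41 on KO replicate 2, next to 3.26 on the nearest KO array, and at the identical value of 3.24 on KO replicates 1 and 3 and every WT array.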

How the results depend on the processing

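Across 16 alternatives Vnn3 stayed called and lower (-3.58 to -3.38). Vnn1 (-1.16 to -0.88) and Coasy (-0.56 to -0.46) were called in all but the fit with a replicate block. Pank3 (-0.46 to -0.31) was called in 9 of 16, and Ppcs changed sign among them (-0.09 to 0.02). Each of these genes has 1 probe set, so averaging a gene's probe sets or fitting each alone returns the same change. The list was chosen on this contrast, so the kept calls add no support. With the replicate number as a block, which also takes KO replicate 4 out of the comparison because it has no WT partner, 523 genes were higher and 286 lower in place of 1140 and 788, listed genes called lower were 1 in place of 4, and pathway genes 6 lower and 0 higher in place of 10 and 1. The cause was not tested. Leaving out single arrays, 594 to 945 genes were higher and 322 to 654 lower, listed genes called lower were 3 to 4, pathway genes lower 4 to 13 and higher 0 to 1, and vanin neighbours lower 0 to 1. With several probe sets of a gene averaged, pathway genes called higher were 0. With the adipocyte mean as a covariate 524 genes were lower, and pathway genes lower were 6. Signal over background was not used here, which limits what can be said of the KO level of Vnn3.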

Other observations

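Exactly equal values on different arrays were common. They occurred in 4 of the 8 genes (Pank1, Pank4, Ppcs and Ppcdc) and in 54.7% of all 22180 genes, and for Ppcs they covered 4 of 7 arrays. They were absent from Vnn1, Vnn3, Pank3 and Coasy, the genes that were called. Hacl1, chosen after its values were seen, shares the probe set of Btd and is also measured by a probe set of its own, with a log2 change of -0.34, next to -0.36 in the authors' deposited table. Rnf24 shares the probe set of Pank2 and also has a probe set of its own, with a change of 0.005. The authors' deposited table lists 0.05 for Rnf24 and -0.31 for Pank2.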
